A study of Mus musculus with 6 samples.

Results

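Basophil and mast cell marker genes were read in bone marrow myeloid cells that had been sorted on a histamine reporter. Basophils and mast cells are the classical histamine-making cells of blood and tissues. The set held 10 genes chosen by name: Fcer1a, Ms4a2, Cpa3, Mcpt8, Prss34, Gata2, Cd200r3, Il4, Cma1 and Tpsb2. Of these, 9 were named by at least 1 probe set with a single gene symbol, giving 13 probe sets among the 18193 genes that such probe sets name. Prss34, a basophil protease gene, had no probe set among them and was not analysed here. The arrays were made from marrow of 2 leg bones, femur and tibia. The donors were Hdc-GFP mice (C57BL/6 background), in which green fluorescent protein marks cells that use Hdc, the gene of the enzyme that makes histamine. The mice carried no other allele and received no treatment that the labels name, and their age is not given in the sources used here. Both groups were positive or high for the reporter and positive for CD11b, an integrin that myeloid cells and also basophils carry. The Gr1hi group had high and the Gr1lo group low staining for Gr1, the antigen of Ly6G and Ly6C, with 3 arrays in each group. The description of Gr1lo replicate 3 spells the reporter in a way that can be read as a hyphen or as a minus sign, while its title gives the same gate as for the others; its Hdc value of 10.75 lay beside 10.99 and 10.85 in Gr1lo replicates 1 and 2. The labels do not say whether replicates are separate animals or pools, so p-values measure the spread between these samples only.

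Basophils and mast cells carry FcεRI, the high-affinity receptor of IgE, made of an alpha chain that holds IgE, a beta chain that strengthens the signal, and a gamma chain shared with other Fc receptors. Crosslinking of IgE empties granules in which histamine lies stored with proteases on serglycin proteoglycan. Basophils mature in the bone marrow and are marked in mice by the protease Mcpt8, while mast cells mature in tissues and add chymases and tryptases. The transcription factor GATA2 is needed for both lineages and also acts in stem cells and megakaryocytes.

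For reference, 4 promoter stretches are shown: those of Mcpt8, Cpa3 and Fcer1a, which were highest on the same arrays, and that of Ms4a2, which differed between the groups. Each is the 250 bases before the gene's start, from RefSeq on GRCm38.p6, written 5′ to 3′ on the gene's strand. Capitals mark 6-base GATA motifs, searched as AGATAA or AGATAG and as TGATAA or TGATAG on both strands, with overlapping matches counted.
Mcpt8, chr14:56085198-56085447, minus strand: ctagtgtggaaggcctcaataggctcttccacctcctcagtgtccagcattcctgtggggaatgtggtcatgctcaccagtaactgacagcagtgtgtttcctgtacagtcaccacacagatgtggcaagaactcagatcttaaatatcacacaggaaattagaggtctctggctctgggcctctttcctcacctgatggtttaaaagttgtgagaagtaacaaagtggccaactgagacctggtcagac
Cpa3, chr3:20242182-20242431, minus strand: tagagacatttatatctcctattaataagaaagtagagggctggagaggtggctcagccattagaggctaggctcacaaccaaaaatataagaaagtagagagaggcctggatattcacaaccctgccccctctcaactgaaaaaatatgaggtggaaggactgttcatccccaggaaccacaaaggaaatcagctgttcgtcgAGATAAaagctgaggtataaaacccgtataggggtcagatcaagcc
Fcer1a, chr1:173227230-173227479, minus strand: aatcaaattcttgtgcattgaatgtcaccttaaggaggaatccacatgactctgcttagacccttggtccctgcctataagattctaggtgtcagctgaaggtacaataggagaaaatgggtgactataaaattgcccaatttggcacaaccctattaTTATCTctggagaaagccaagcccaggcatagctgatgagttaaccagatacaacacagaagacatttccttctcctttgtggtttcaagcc
Ms4a2, chr19:11623720-11623969, minus strand: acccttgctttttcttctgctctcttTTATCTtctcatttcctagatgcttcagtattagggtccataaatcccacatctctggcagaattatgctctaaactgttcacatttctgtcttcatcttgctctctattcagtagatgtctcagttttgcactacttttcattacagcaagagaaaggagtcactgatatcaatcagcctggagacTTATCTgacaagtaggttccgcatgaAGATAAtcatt
The Mcpt8 stretch held 0 such motifs. Cpa3 had 1 motif, beginning 46 bases before the start, and Fcer1a had 1 on the other strand, 92 bases before it. Ms4a2 had 3, beginning 224, 37 and 11 bases before the start. Among all 32851 RefSeq promoter stretches of that length, 26.5% held at least 1 motif and 6.4% at least 2. Stretches were found for 9 of the 10 members, 11 stretches in all, and 7 of the 11 held at least 1 motif. These belonged to 7 members: besides Cpa3, Fcer1a and Ms4a2 they were Prss34, Cd200r3, Il4 and Cma1. Il4 had 1 motif in 1 of its stretches and 0 in another. A match of letters is a description and shows no binding.

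Before the results, the arrays themselves need a word. All 6 samples are labelled female, yet the Y-linked gene Eif2s3y lay between 9.02 and 10.66 on all of them, on the deposited log2 scale. Xist, the RNA that coats the silenced X chromosome, read 10.14 in Gr1hi replicate 3 and 10.95 in Gr1lo replicate 3, and no more than 2.43 on the other 4 arrays. The replicate 3 arrays thus stand apart from the rest in both groups, and values without them are given beside the members' differences and the list counts that they move. Neutrophil transcripts were high on average: over 13 neutrophil marker genes the mean log2 value was 12.37 to 12.66 in Gr1hi and 12.71 to 12.94 in Gr1lo. That mean covers genes that went opposite ways. Elane, for 1, averaged 4.62 ± 0.61 in Gr1hi and 11.61 ± 0.35 in Gr1lo, while Cxcr2 averaged 10.88 ± 0.11 and 7.89 ± 0.47. Hdc itself, with 12.33 ± 0.30 in Gr1hi and 10.86 ± 0.12 in Gr1lo (SD, n = 3 each), was abundant in both groups.

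Most of the marker genes were near the level of absent transcripts. Values are log2 probe set values that the authors made with GCRMA, which carry no detection calls, so 2 yardsticks were used. The 3 control probe sets of an absent bacterial transcript reached 2.77 at most. The 42 probe sets of 23 genes of tissues outside blood, such as albumin and insulin, reached 3.59 at most, with a median of 2.39. Of the 13 member probe sets, 5 were at or below 2.77 on all 6 arrays and 8 were at or below 3.59 on all 6. The other 5, for Mcpt8, Ms4a2, Cpa3, Fcer1a and Gata2, went above 3.59 on at least 1 array, and 0 did so on all 6.

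**Figure D1:**
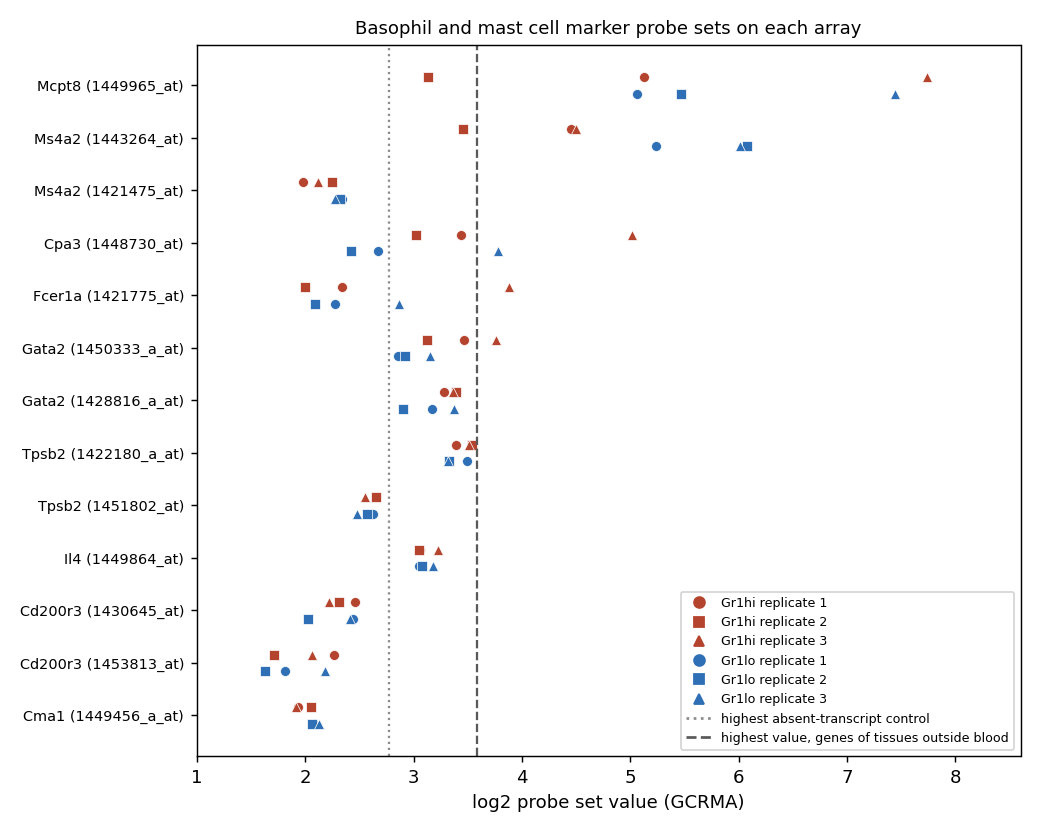
Log2 probe set value (horizontal axis) of the 13 probe sets of the marker genes, 1 point per array, with Gr1hi drawn above Gr1lo and the replicate shown by the symbol. The dotted line is the highest control of an absent transcript (2.77) and the dashed line the highest value among genes of tissues outside blood (3.59); only Mcpt8, Ms4a2, Cpa3, Fcer1a and Gata2 have points beyond the dashed line, and levels of different probe sets are not comparable.

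Among the granule proteases, Mcpt8 was above 3.59 on 5 of the 6 arrays. This gene encodes mast cell protease 8, which despite its name is made by mouse basophils. Its values were 5.13, 3.13 and 7.74 in Gr1hi replicates 1, 2 and 3, against 5.06, 5.47 and 7.44 in Gr1lo replicates 1, 2 and 3. The highest value of each group was on its replicate 3 array, the lowest of all 6 was on Gr1hi replicate 2, and the groups overlapped. Replicate 3 exceeded the mean of replicates 1 and 2 by 3.61 in Gr1hi and by 2.17 in Gr1lo, or 12.2-fold and 4.51-fold. Between the groups the mean differed by -0.66 (SE 1.02, limma adjusted p = 0.609), less than the spread between replicates. That difference became 0.45 without Gr1hi replicate 2 and 0.07 without Gr1lo replicate 3, and was -1.13 without both replicate 3 arrays (adjusted p = 0.156). With each array shifted so that kept genes share 1 median (median centring) it was 0.02, and it passed in 0 of the 18 alternatives (limma adjusted p from 0.0787 to 0.986). In these bulk samples, fewer cells of a type and less RNA per cell cannot be told apart.

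Cpa3 encodes the mast cell carboxypeptidase, which basophils and their progenitors also make. Its values were 3.44, 3.02 and 5.02 in Gr1hi replicates 1, 2 and 3, against 2.67, 2.42 and 3.78 in Gr1lo replicates 1, 2 and 3. Again replicate 3 was the highest of each group, and it alone went above 3.59 in each. The groups overlapped. The mean difference of 0.87 (SE 0.50) did not pass the test (limma adjusted p = 0.17). It was 0.27 without Gr1hi replicate 3, and 1.55 under median centring, where it passed (adjusted p = 0.012). It also passed in a fit that pairs arrays by replicate number (replicate block, limma adjusted p = 0.00226). The labels do not say whether equal numbers mark a shared source. Without both replicate 3 arrays it was 0.69 and passed (adjusted p = 0.0159), but the 4 arrays left were all between 2.42 and 3.44, inside the range of genes of tissues outside blood.

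Among the proteases of mature mast cells, Cma1, Tpsb2 and Tpsab1 showed no such signal. Cma1, the gene of a mast cell chymase, lay between 1.92 and 2.13 on all 6 arrays, not above the absent-transcript controls, and was set aside before testing. Tpsb2, the gene of a mast cell tryptase, had a probe set at 3.39, 3.54 and 3.51 in Gr1hi and at 3.49, 3.33 and 3.32 in Gr1lo, and another between 2.48 and 2.65. The groups overlapped in the first of these, which differed by 0.10 (SE 0.12, limma adjusted p = 0.517) and by 0.05 without both replicate 3 arrays. Tpsab1, another tryptase gene, averaged 2.86 ± 0.04 in Gr1hi and 2.67 ± 0.08 in Gr1lo (SD, n = 3 each; adjusted p = 0.103).

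Of the IgE receptor chains, Fcer1a encodes the alpha chain that binds IgE. It read 2.34, 2.00 and 3.88 in Gr1hi replicates 1, 2 and 3, against 2.28, 2.09 and 2.87 in Gr1lo replicates 1, 2 and 3. Both replicate 3 arrays were above the other 4, as for Mcpt8 and Cpa3, but only Gr1hi replicate 3 went above 3.59. Too few arrays passed the filter on low values for a test, and the mean difference was 0.32. That difference was -0.25 without Gr1hi replicate 3, 0.69 without Gr1hi replicate 2 and -0.02 without both replicate 3 arrays, so its sign rests on single arrays.

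Ms4a2 encodes the beta chain, and its 2 probe sets disagreed. The one that stood higher (1443264_at) read 4.45, 3.46 and 4.50 in Gr1hi replicates 1, 2 and 3, against 5.24, 6.08 and 6.01 in Gr1lo replicates 1, 2 and 3. All Gr1hi arrays were below all Gr1lo arrays, and the gene fell in Gr1hi by 1.64, or 3.11-fold (limma SE 0.33, adjusted p = 0.00206). It passed in all 18 alternatives run, including the fit without both replicate 3 arrays, where the difference was -1.70. Its size depended on the setting: it was -0.96 under median centring and -0.92 with both probe sets averaged. The other probe set (1421475_at), for which the platform annotation lists a RefSeq transcript, lay between 1.98 and 2.34 on all arrays and did not go above the absent-transcript controls. It was set aside by the filter, and a difference at that level cannot be measured. The fall rests on 1 of 2 probe sets, and that probe set did not share the replicate 3 peak of Mcpt8, Cpa3 and Fcer1a. Which of them reports the beta chain was not tested.

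Gata2, the transcription factor gene, stayed close to the level of genes of tissues outside blood. The probe set that represents the gene read 3.28, 3.39 and 3.36 in Gr1hi, against 3.17, 2.90 and 3.37 in Gr1lo, with overlapping groups and a difference of 0.20 (SE 0.14, limma adjusted p = 0.255), or 0.30 without both replicate 3 arrays. Its second probe set (1450333_a_at) read 3.47, 3.12 and 3.76 in Gr1hi, against 2.86, 2.92 and 3.15 in Gr1lo. Tested on its own, that one was higher in Gr1hi by 0.47 (SE 0.17, adjusted p = 0.0389), although its groups overlapped and a single array was above 3.59.

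Cd200r3, an activating receptor gene of mouse basophils and mast cells, had probe sets at 2.03 to 2.46 and at 1.63 to 2.27. Both stayed below 2.77 on all arrays. Il4, the gene of the cytokine that activated basophils release in quantity, read 3.06, 3.05 and 3.23 in Gr1hi, against 3.05, 3.08 and 3.18 in Gr1lo. All of these values lay below 3.59, the highest value among genes of tissues outside blood. The groups differed by 0.01 (SE 0.11, limma adjusted p = 0.928), or by -0.01 without both replicate 3 arrays.

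Between Gr1hi and Gr1lo, then, 1 of the 6 tested members was called, Ms4a2, which was lower in Gr1hi. Among all 12739 tested genes 56.4% were called (24.6% higher and 31.8% lower in Gr1hi). The members' median difference was 0.06, and that of all tested genes 0.03. Groups did not overlap in 1 of the 6 members, against 65.5% of all tested genes. Scaling bears on these counts. Median centring moved the median difference of all genes to 0.70 and the share of calls that were higher in Gr1hi to 78.3%, against 43.6% as deposited. It called 5 of the 6 members, 4 of them higher, where 83.7% of all genes were called and all 9 tested genes of tissues outside blood were called higher. Setting the spiked hybridization controls equal on all arrays moved the median to -0.23 and that share to 27.7%, and Ms4a2 was then the 1 member called, where 52.7% of all genes were. Without both replicate 3 arrays 2 members were called, Ms4a2 and Cpa3 (50.8% of all genes). With each probe set tested 2 were called, Ms4a2 and Gata2 (56.2% of all probe sets).

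For Mcpt8, Cpa3 and Fcer1a the departure of the replicate 3 arrays was larger than the difference between the groups. To describe it, the excess of replicate 3 over the mean of replicates 1 and 2 was taken in each group, and genes were ordered by the smaller of both excesses. This measure was chosen after the values had been seen and carries no test. Xist came first of 18193 genes, with 7.79 in Gr1hi and 8.79 in Gr1lo. Mcpt8 was in place 2, Cpa3 with 1.79 in Gr1hi and 1.23 in Gr1lo in place 10, and Fcer1a with 1.71 in Gr1hi and 0.68 in Gr1lo in place 42. Of the 9 measured members, 2 exceeded 1 in both groups, against 0.0879% of all genes with a probe set. Both replicate 3 arrays were above the other 4 in 4 of the 9 (Mcpt8, Cpa3, Fcer1a and, by at most 0.17, Il4), against 3.41% of all genes. Among tested genes alone the shares were 0.118% and 2.73%. Under median centring, which moves the groups apart, Mcpt8 alone was still highest on both, while the excess of Cpa3 within each group was 1.71 in Gr1hi and 1.31 in Gr1lo. Ms4a2 was in place 227, and Gata2, Cma1, Tpsb2 and Cd200r3 were farther down, with a smaller excess of 0.03 or less.

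**Figure D2:**
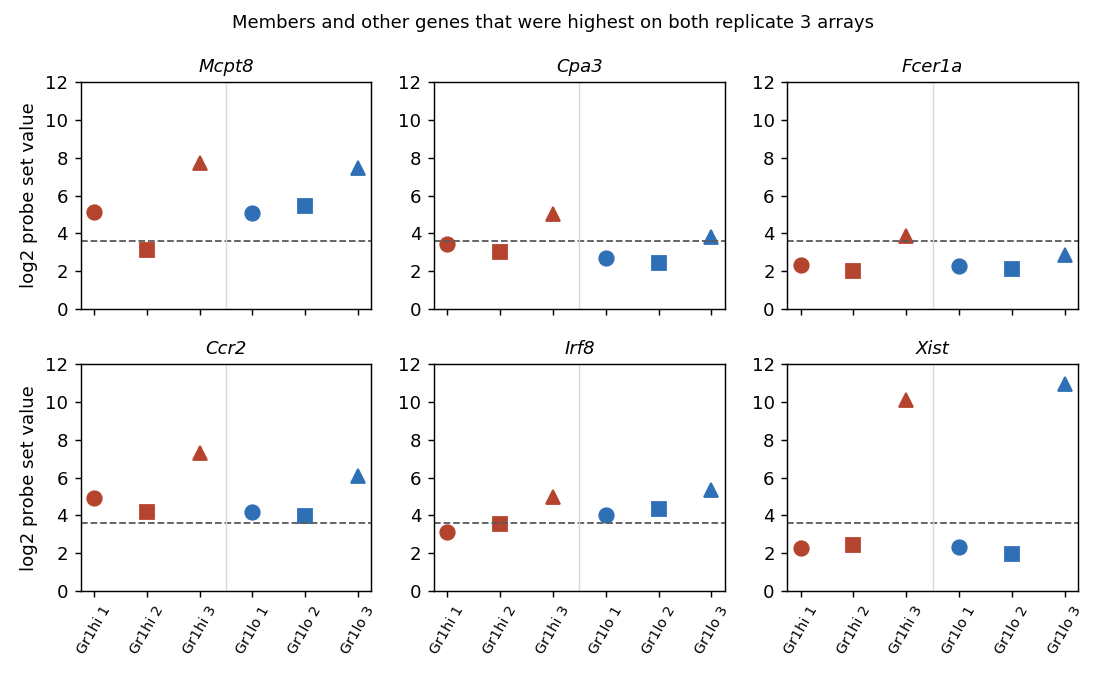
Log2 probe set value (vertical axis) on each array of Gr1hi and Gr1lo replicates 1 to 3 for 3 members (Mcpt8, Cpa3, Fcer1a), the monocyte genes Ccr2 and Irf8, and Xist; the dashed line is 3.59, the highest value among genes of tissues outside blood. In each panel the triangles, which are the replicate 3 arrays, are the highest points of both groups, as with Mcpt8 at 7.74 in Gr1hi and 7.44 in Gr1lo.

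Genes of other cells had the same high arrays. Ccr2, the chemokine receptor gene of inflammatory monocytes, which basophils can carry too, came next after Mcpt8 and read 4.91, 4.19 and 7.29 in Gr1hi replicates 1, 2 and 3, against 4.20, 3.98 and 6.07 in Gr1lo replicates 1, 2 and 3. It was followed by Ly86, with an excess of 1.55 in Gr1hi and 1.60 in Gr1lo, and S100a4, with 1.74 and 1.34. Irf8, a transcription factor gene of monocytes and dendritic cells that basophil progenitors also need, was in place 12, and the monocyte gene Ms4a6c in place 15. Over the whole list of 7 monocyte markers, 4 were highest on both replicate 3 arrays (Ccr2, Irf8, Klf4 and Ms4a6c). The mean of that list was 5.87, 5.86 and 7.04 in Gr1hi and 5.67, 5.48 and 6.74 in Gr1lo, and 0 of its 7 genes stayed at or below 3.59 throughout. Over the 9 members the mean was 3.28, 2.88 and 3.93 in Gr1hi and 3.28, 3.27 and 3.83 in Gr1lo, and 5, by the probe set that represents them, stayed at or below 3.59. The part of monocytes, of sex or of the sort in the high replicate 3 values was not tested.

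**Figure D3:**
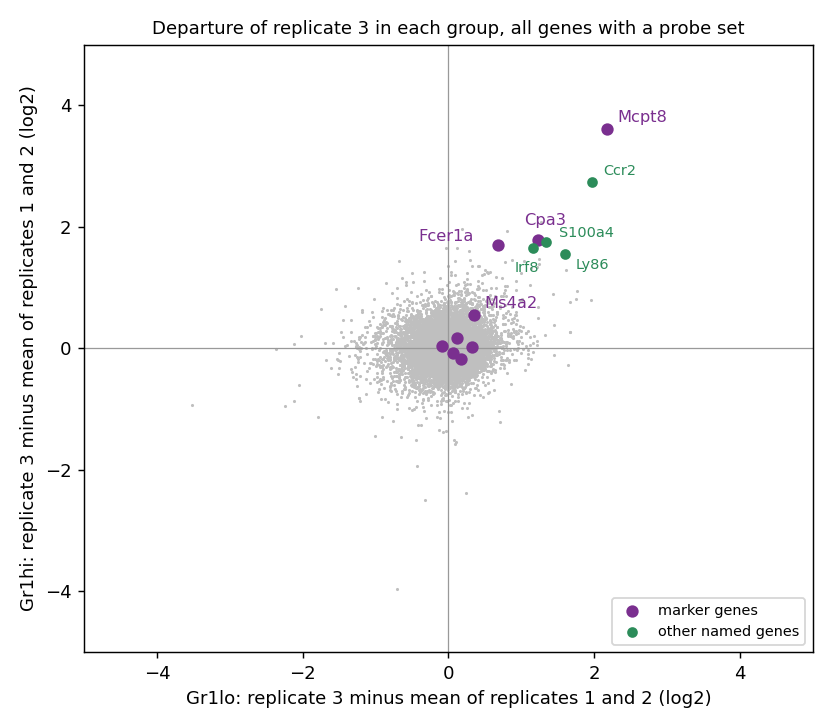
Excess of replicate 3 over the mean of replicates 1 and 2 on the log2 scale, in Gr1hi (vertical axis) and Gr1lo (horizontal axis), for all 18193 genes with a probe set (grey), the marker genes (purple) and 4 other genes (green); 1 gene, Xist, lies outside the axes. Mcpt8 lies at 3.61 and 2.17, apart from the cloud of genes around 0, with Ccr2, Cpa3, S100a4, Ly86, Irf8 and Fcer1a between it and the cloud.

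The genes whose profile over the 6 arrays was nearest to that of a member were found by the root mean square difference of profiles centred on their own mean. For Ms4a2, the called member, these were Ttc39c (0.20), Zfp507 (0.22) and Rgs10 (0.23), all lower on every Gr1hi array than on every Gr1lo array. For Mcpt8, added after its values were seen, the nearest was Ccr2 at 0.86, a far looser match. For Cpa3, added likewise, the nearest were S100a4 (0.21), Ms4a4b (0.27) and Ifi209 (0.28).

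The lists of genes that act around these markers were chosen with earlier results of these data known. Of 15 tested genes of IgE receptor signalling, 8 rose in Gr1hi and 0 fell, with a median difference of 0.43. Among all tested genes 56.4% were called, 24.6% higher and 31.8% lower, and the counts of all lists below are to be read against these shares. Without both replicate 3 arrays 6 of the 15 rose. Fcer1g, the gamma chain that neutrophils use for other Fc receptors, rose by 0.71 (13.34 ± 0.07 in Gr1hi, 12.63 ± 0.20 in Gr1lo, SD, n = 3 each). Gab2, an adaptor, rose by 2.06, the kinase gene Syk by 1.33 and Inpp5d, which encodes the phosphatase SHIP1, by 0.95. Under centring on hybridization controls 4 of the 15 rose and 1 fell, and under median centring all 15 rose.

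Among 8 tested receptor genes for basophil and mast cell growth factors 6 rose and 1 fell, and the median difference was 1.11. Il4ra rose by 2.26, Crlf2, part of the TSLP receptor, by 1.21, Il18rap by 1.30 and Csf2rb, the common beta chain of the IL-3, IL-5 and GM-CSF receptors, by 0.90. Il3ra, the IL-3 receptor's own chain and a marker of basophils, read 5.18 ± 0.09 in Gr1hi and 5.47 ± 0.09 in Gr1lo and did not pass (limma adjusted p = 0.189). Kit, the stem cell factor receptor of mast cells and progenitors, fell, with 6.47 ± 0.39 in Gr1hi and 8.41 ± 0.29 in Gr1lo (difference -1.94, adjusted p = 7.39e-05).

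Lineage factor genes went both ways, with 4 of 11 tested higher, 2 lower (Lmo2 and Runx1) and a median of -0.05; 8 were higher and 0 lower under median centring. The call of Runx1 was lost without Gr1hi replicate 3, Gr1lo replicate 1 or Gr1lo replicate 3, and without both replicate 3 arrays. Mitf, a factor of mast cells and of other myeloid cells, rose with 7.23 ± 0.28 in Gr1hi and 4.96 ± 0.12 in Gr1lo (difference 2.27, limma adjusted p = 1.09e-05). Stat5b, which relays IL-3 signals, rose by 1.60, Cebpb by 1.27 and Spi1, which encodes PU.1, by 1.13. Mast cell markers as a list had 8 tested genes, of which 1 rose (Mitf) and 2 fell (Kit and Ms4a2), against 2 and 2 without both replicate 3 arrays and 6 and 2 under median centring. The basophil list had 9 tested genes, of which 1 rose, Cyp11a1, a steroid-making enzyme gene, by 0.38 (3.26 ± 0.17 in Gr1hi, 2.88 ± 0.09 in Gr1lo), and 1 fell, Ms4a2. Without both replicate 3 arrays 3 of the 9 rose, Cpa3 and Il13 among them, and 6 rose under median centring and 0 under centring on hybridization controls. The rise of Cyp11a1 was lost on leaving out any 1 array of replicates 1 and 2, and under centring on hybridization controls (limma adjusted p = 0.588). All its values, 2.79 to 3.38, lay inside the range of genes of tissues outside blood.

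Among cytokine genes 3 of 7 tested rose and 0 fell, against 7 and 0 under median centring and 5 and 0 without both replicate 3 arrays. Csf1, the gene of macrophage colony-stimulating factor, rose with 8.02 ± 0.76 in Gr1hi and 4.28 ± 0.30 in Gr1lo. Its difference of 3.74 ranged from 1.33 to 4.42 over the settings. Ccl3 and Ccl4, chemokine genes, rose by 2.41 and 1.20, while Il13 differed by 0.29 at values near 3 (adjusted p = 0.0788). In Gr1lo, Ccl3 (1.65 to 2.36) and Ccl4 (2.54 to 2.62) were not above the absent-transcript controls, so the sizes of these rises are uncertain. Ccl3 passed the filter through its Gr1hi arrays alone. In the CD200 receptor family, both tested genes rose: Cd200r1, an inhibitory receptor, by 2.02, and Cd200r4 by 1.45, while Cd200r3 was too low to test. Of 6 tested granule storage and histamine genes 3 rose (Hdc by 1.47, Hnmt by 0.92 and Srgn by 0.35) and 1 fell (Ctsg, the cathepsin G gene, by 4.39). The rise of Srgn was lost under centring on hybridization controls (adjusted p = 0.537). Eicosanoid enzyme genes rose in 3 of 4 tested, Ptgs2 by 3.86, Alox5 by 1.01 and Alox5ap by 0.59, and fell in 1, Pla2g4a, by 0.52. Ptgs2 too was not above the absent-transcript controls in Gr1lo (1.94 to 2.37) and passed the filter through its Gr1hi arrays alone. The fall of Pla2g4a was lost under median centring, where it differed by 0.15, and without Gr1hi replicate 1 or Gr1lo replicates 1 or 2.

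**Figure D4:**
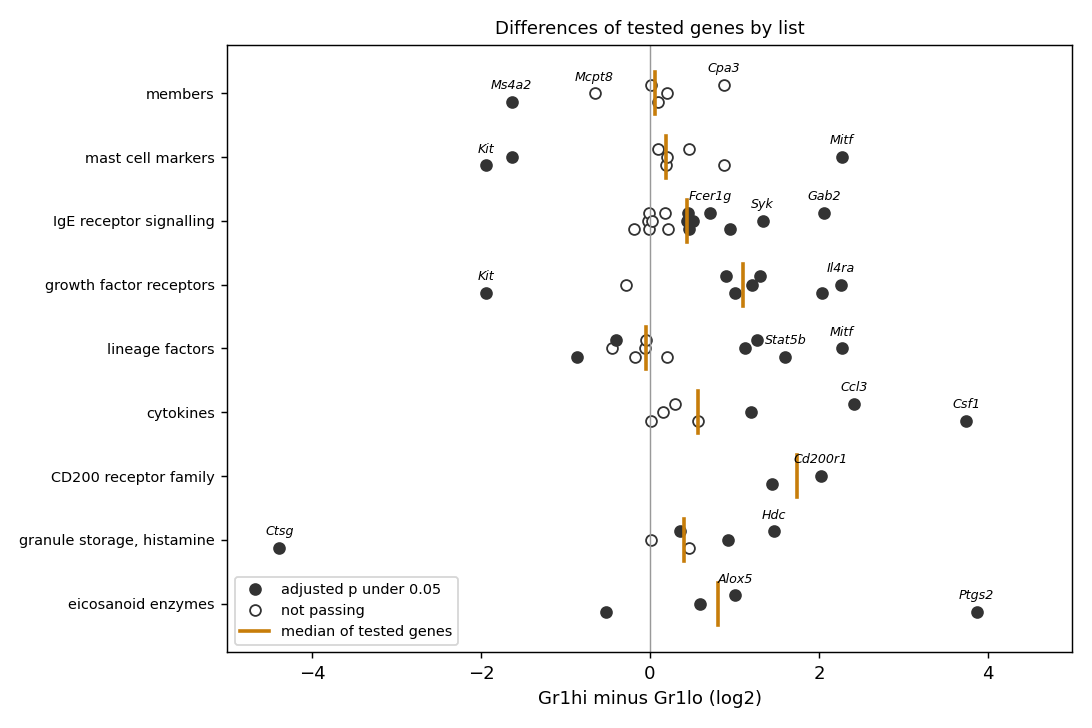
Difference Gr1hi minus Gr1lo on the log2 scale (horizontal axis) for each tested gene of the marker set and of 8 related lists; filled points passed at an adjusted p under 0.05, open points did not, and the orange bar is the median of the tested genes. In the marker set only Ms4a2 at -1.64 is filled, whereas growth factor receptors have a median of 1.11 and IgE receptor signalling one of 0.43.

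Lists of other cells that could share these markers gave the following counts. Of 2 tested eosinophil markers 0 were called (Prg2 with 4.75 ± 1.09 in Gr1hi and 3.94 ± 0.35 in Gr1lo, and Siglecf with 8.17 ± 0.08 in Gr1hi and 8.46 ± 0.34 in Gr1lo). Among 6 megakaryocyte markers 2 rose and 1 fell, among 5 T cell markers 2 rose and 0 fell, and among 6 B cell markers 4 rose and 1 fell, where 24.6% of all tested genes were higher and 31.8% lower. Without both replicate 3 arrays 2 B cell markers rose and 1 fell, and the rise of Cd79a was lost in 11 of the 18 alternatives. Under centring on hybridization controls 1 T cell marker rose, and 1 B cell marker rose and 1 fell. The T cell rises were Cd3d (8.49 ± 0.15 in Gr1hi, 4.32 ± 0.69 in Gr1lo) and Cd6. Of the genes counted as rising, Cd6, the megakaryocyte gene Pf4, Cd79a and another B cell gene stayed at or below 3.59 on all 6 arrays. That other B cell gene did not average above 2.77, the highest absent-transcript control, in either group. Stem and progenitor markers fell in 3 of 6 (Myb, Kit and Cd48), and erythroid markers in 1 of 3 (Hemgn). Of 7 tested monocyte markers 1 rose (Csf1r) and 1 fell (F13a1), against 1 and 3 without both replicate 3 arrays, and of 13 neutrophil markers 4 rose and 3 fell, against 6 and 3 without both replicate 3 arrays. The genes of tissues outside blood had 0 of 9 tested genes called.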

How the data were processed

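Gene expression of sorted bone marrow cells was measured on 6 one-colour Affymetrix arrays, from 100 ng of total RNA each, 3 of Gr1hi and 3 of Gr1lo cells. The authors deposited log2 values per probe set from GCRMA, per the submitters' processing notes; its version is not given in the sources used here. GCRMA corrects the background by probe sequence and normalizes arrays to each other. Differences between low values are uncertain. The table holds 45101 probe sets, 34945 of them with 1 gene symbol in the platform annotation and 932 with several, which were not used. For 18193 genes, the probe set of highest mean stood for the gene. Testing required that 3 or more of the 6 arrays lay above their own 40th percentile (2.57 to 2.68), which left 12739. Groups were compared with limma 3.58.1 (lmFit, eBayes with trend) in R 4.3.3, with Benjamini-Hochberg adjustment over all kept genes and a threshold of 0.05. The script was tested on simulated data. Tables and figures used Python 3.11.15, pandas 2.3.3 and matplotlib 3.10.9. Samples were grouped by their titles, and the number of arrays limits the precision.

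The members and gene lists were chosen with earlier results of these data known. All members are named, and of each list up to 4 genes with the smallest p above the control level in their higher group. Other genes, such as Il3ra, Tpsab1, Irf8 and Xist, and the measure of the replicate 3 excess were chosen after their values were seen. Alternatives were other filters, probe set rules, eBayes settings, scalings, array weights, a replicate block and leaving arrays out. Prss34 was not analysed here.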

Additional observations from a re-analysis of the deposited data

How the results depend on the processing

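Ms4a2 passed in all 18 alternatives, between -1.90 and -1.30 with 1 array or both replicate 3 arrays left out, at -0.96 with median centring and at -0.92 when its probe sets were averaged. Sizes of list genes moved as well, without a change of sign. Over the settings with 1 value per gene, Ptgs2 ranged from 2.01 to 4.54 and Il4ra from 0.96 to 2.94. Mitf ranged from 1.37 to 2.94 and Kit from -2.24 to -1.12. Fcer1a, which was not tested, ranged from -0.25 to 0.69 with arrays left out. The number of members called was 2 when probe sets of a gene were averaged, with each probe set tested and with the replicate block, 5 with median centring, and 1 to 2 with arrays left out. Genes called were 6472 to 6893 with arrays left out, and 12755 of 22715 with each probe set tested. Mcpt8 ranged from -1.86 to 0.45 with arrays left out, and reversed to 0.02 with median centring, 0.45 without Gr1hi replicate 2 and 0.07 without Gr1lo replicate 3. With arrays centred on the hybridization controls Gata2 reversed to -0.06, Il4 to -0.25 and Tpsb2 to -0.16. Il4 ranged from -0.04 to 0.05 with arrays left out and was -0.01 without both replicate 3 arrays, -0.04 without Gr1hi replicate 3 and -0.01 without Gr1lo replicate 1. Member probe sets highest on both replicate 3 arrays, a count chosen after seeing the data, numbered 1 with median centring, against 4 as deposited. The cause of these changes was not tested. Arrays with the same replicate number deviated from their group means with r = 0.166, 0.00429 and 0.145 for numbers 1, 2 and 3 across genes, which are not independent replicates. Those of numbers 1 and 3 were the highest of all pairs of arrays. Gr1hi replicate 2 correlated more with Gr1lo replicate 3 (0.0347). Xist was high on both replicate 3 arrays only. The labels do not say what a number marks, so whether the numbers pair the arrays remains undecided. The main fit did not pair them. With the replicate block 7059 genes were called, and Cpa3 passed (limma adjusted p = 0.00226). Members near the absent-transcript controls have no measurable difference at this signal over background.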
